A study of Mus musculus with 8 samples.

Results

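Small RNA of mouse sperm was sequenced in 8 libraries, 4 labelled control and 4 labelled ethanol, in a series on alcohol exposure followed by a period without it. The results below describe the RNA counted at tRNA genes for glycine and glutamate. Its members were all structural RNA entries of the deposited table that are annotated as tRNA and whose name begins with tRNA-Gly- or tRNA-Glu-. They comprised 6 of the 59 tRNA names in the table and 105 of its 1090 tRNA rows, each row being 1 annotated copy. Glycine had 3 names, tRNA-Gly-GGY, tRNA-Gly-GGA and tRNA-Gly-GGG, with 69 rows, and glutamate had 3, tRNA-Glu-GAG_, tRNA-Glu-GAA and tRNA-Glu-GAG, with 36 rows. The last letters are a codon, with Y standing for C or T, and the table lists tRNA-Glu-GAG_ and tRNA-Glu-GAG, with and without a closing mark, as separate names. Rows of 1 name were summed. The labels give tissue and treatment, while strain, age, dose and duration are not given in the sources used here. Nothing in them ties each sample to an animal of its own, so that the p-values below speak only of the spread among these libraries, which may be technical.

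A tRNA carries 1 amino acid to the ribosome and reads a codon of the messenger RNA through its anticodon. Cleavage near the anticodon loop leaves a 5′ and a 3′ part, known as tRNA fragments. In rodents, 5′ fragments of glycine and glutamate tRNAs are among the most abundant small RNAs of mature sperm, and sperm are known to gain tRNA fragments during passage through the epididymis. The deposited counts do not separate the 5′ part from the 3′ part, or a fragment from a whole tRNA. In bulk RNA, fewer cells of a type and less RNA per cell cannot be told apart.

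Library totals ran from 3481865 to 6975180 counts, and tRNA names together held 27.05% to 53.1% of them, the highest share being in ethanol 4. Of 45090 features in 16 RNA classes 13515 had enough counts to be tested. Transcripts of spermatids and sperm were present in every library, with a summed level of 565 to 742 CPM (counts per 1000000, scaled between libraries by TMM) in control and 229 to 621 CPM in ethanol. Of these 12 transcripts edgeR called 0, with 2 at an unadjusted p under 0.05, the DESeq2 Wald test called 2 and limma-voom 0. Their log2 fold changes of ethanol over control were positive in 0 of 12, with a median of -0.52 (edgeR). The most abundant were Odf1, of the outer dense fibres of the tail, and Smcp, of the mitochondrial capsule. Smcp was lower in every ethanol library than in every control (adjusted p = 0.126, edgeR). Transcripts of epididymal epithelium were also present, at 388 to 655 CPM in control and at 2475, 11234, 840 and 1213 CPM in ethanol 1 to 4. Crisp1 made up most of this sum, at 347 to 635 CPM in control and 2374, 9631, 770 and 1138 CPM in ethanol. Of the 11 epididymal transcripts none was at 0 throughout a group, but those not tested averaged at most 2.70 CPM in either group. The 3 tested were Crisp1, Adam7 and Aqp9, the last named after its values were seen. All 3 were called higher in ethanol by edgeR, 2 by DESeq2 and 0 by limma-voom. Of 5 tested blood and immune transcripts edgeR called Hba-a1 and Hba-a2 lower, named after their values were seen, DESeq2 called 4 and limma-voom 0. The most abundant, Cd74 and Hbb-bs, were not called by edgeR (adjusted p = 0.664 and 0.0920). Positive estimates were 0 of 5. S100a8, not tested and named after its values were seen, averaged 0.518 CPM in control and 5.05 CPM in ethanol. Of 3 tested transcripts of Sertoli, Leydig and stromal cells edgeR called 0, with 1 at an unadjusted p under 0.05, DESeq2 1 and limma-voom 0. The most abundant were Acta2 and Col1a1 (adjusted p = 0.721 and 0.0690, edgeR). Positive estimates were 0 of 3, with a median log2 fold change of -0.83. Sox9, not tested and named after its values were seen, was higher in every ethanol library than in every control.

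A glycine and a glutamate name had the highest summed levels of all tRNA names in these sperm. Together the 6 names held 6825134 of 14513281 tRNA counts, or 47.0%, when all rows of a name were added. With 1 copy per name, the largest, they held 19.9% ± 2.20 of tRNA counts in control and 18.9% ± 4.32 in ethanol (SD, n = 4). In control, glycine names took 24.7% ± 3.35 of tRNA counts and glutamate names 24.7% ± 2.15 (SD, n = 4). Nearly all of this came from 1 name each, tRNA-Gly-GGY and tRNA-Glu-GAG_, which ranked 1 and 2 among the tRNA names by summed CPM. The order of the others was tRNA-Gly-GGA at rank 17, tRNA-Gly-GGG at rank 40, tRNA-Glu-GAA at rank 44 and tRNA-Glu-GAG at rank 59. These ranks are of levels not divided by length, and they add the rows of a name. The ranges of the first and second in this order overlapped, as did those of tRNA-Gly-GGG and tRNA-Glu-GAA, while tRNA-Gly-GGA stood apart from both pairs in all 8 libraries.

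Between control and ethanol, none of the 5 tested glycine and glutamate names was called different. edgeR's quasi-likelihood test called 0 of 5 at an adjusted p under 0.05, and 0 had an unadjusted p under 0.05. The DESeq2 Wald test and limma-voom also called 0, each with 0 at an unadjusted p under 0.05. Over all features tested the same edgeR fit called 13.6%, of which 11.9% of features were higher and 1.75% lower in ethanol. Groups whose CPM ranges did not overlap made up 21.3% of all features tested, against 0 of these 5 names. The median log2 fold change of the 5 was -0.09, beside -0.20 over all 57 tested tRNA names and -0.01 over all features.

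tRNA-Gly-GGY, which stands for the tRNAs with the anticodon GCC and its minor partner ACC, stood at 76820, 75701, 104833 and 119108 CPM in control 1 to 4. In ethanol 1 to 4 it stood at 98463, 26562, 73847 and 149034 CPM. Ethanol 2 was lowest and ethanol 4 highest of the 8 libraries, so that the ethanol range enclosed the control range. The log2 fold change of ethanol over control was -0.11 ± 0.51 (SE), with a 95% interval from -1.20 to 0.98 and an adjusted p of 0.901 (edgeR).

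tRNA-Gly-GGA, read through the anticodon TCC, stood at 3255, 3150, 3806 and 4223 CPM in control and at 2882, 1767, 3489 and 5411 CPM in ethanol. Ethanol 2 and ethanol 4 were again the lowest and the highest library. Its log2 fold change was -0.09 ± 0.45, with an adjusted p of 0.908 (edgeR). tRNA-Gly-GGG, read through the anticodon CCC, stood at 313, 309, 480 and 404 CPM in control and at 337, 112, 405 and 929 CPM in ethanol. The same 2 libraries marked the ends of its range, and its log2 fold change was 0.24 ± 0.54 with an adjusted p of 0.781 (edgeR).

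tRNA-Glu-GAG_, read through the anticodon CTC, stood at 88377, 91781, 88542 and 120659 CPM in control. In ethanol it stood at 73569, 34215, 64138 and 120466 CPM. Ethanol 1, 2 and 3 lay below every control library, while ethanol 4 was next to the highest control. The log2 fold change was -0.41 ± 0.46, with a 95% interval from -1.40 to 0.57 and an adjusted p of 0.548 (edgeR).

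tRNA-Glu-GAA, read through the anticodon TTC, stood at 244, 251, 221 and 258 CPM in control and at 182, 331, 244 and 478 CPM in ethanol. Here ethanol 2, the lowest library of the other tested names, was above every control, as was ethanol 4, and ethanol 1 was lowest. The log2 fold change was 0.34 ± 0.42, with an adjusted p of 0.590 (edgeR). tRNA-Glu-GAG, written without the closing mark, had 11 counts in all libraries together and was not tested. It had 3, 1, 1 and 2 counts in control and 0, 3, 0 and 1 in ethanol. A count of 0 allows up to 3 counts, or 0.438 unscaled CPM in ethanol 1 and 0.430 in ethanol 3, which covers counting error only.

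**Figure D1:**
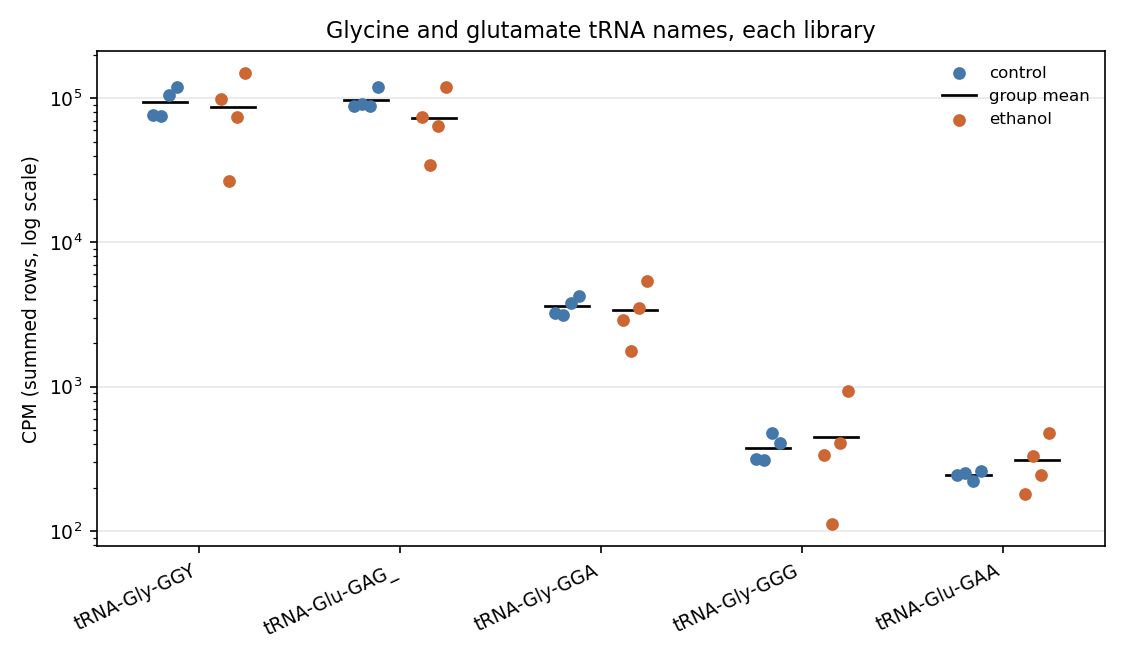
CPM (log axis) of the 5 tested glycine and glutamate tRNA names, 1 point per library, control in blue and ethanol in orange, with a black line at each group mean. The ethanol points spread further than the control points in every name, with tRNA-Gly-GGY between 26562 and 149034 CPM in ethanol and between 75701 and 119108 CPM in control.

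Among the tested tRNA names the 5 were spread over the order of fold changes rather than gathered at 1 end. From the highest estimate down, tRNA-Glu-GAA was at position 7, tRNA-Gly-GGG at 10, tRNA-Gly-GGA at 21, tRNA-Gly-GGY at 25 and tRNA-Glu-GAG_ at 33 of 57. Of the 57 names 17 had a positive and 40 a negative estimate, 0 were called by edgeR and 2, tRNA-Asp-GAY and tRNA-Thr-ACY, had an unadjusted p under 0.05. The DESeq2 Wald test called 1 of the 57, tRNA-Asp-GAY, and limma-voom 0. The CPM ranges of control and ethanol did not overlap in 3 of the 57, tRNA-Asp-GAY, tRNA-Trp-TGG and tRNA-Pro-CCY, the last 2 named after their values were seen, like tRNA-Thr-ACY.

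The 5 most abundant other names give the scale. tRNA-Asp-GAY, for aspartate, stood at 16511 to 21996 CPM in control and at 27727, 93177, 24553 and 35890 CPM in ethanol. Its highest library was thus ethanol 2, the lowest for tRNA-Gly-GGY, and its log2 fold change was 1.19 ± 0.50 with an adjusted p of 0.116 (edgeR). The log2 fold changes of tRNA-Val-GTG and tRNA-Val-GTY, for valine, were 0.20 ± 0.54 and 0.27 ± 0.56. Those of tRNA-Lys-AAA, for lysine, and tRNA-SeC(e)-TGA, for selenocysteine, were -0.15 ± 0.48 and -0.52 ± 0.46. None of these 4 passed the threshold.

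**Figure D2:**
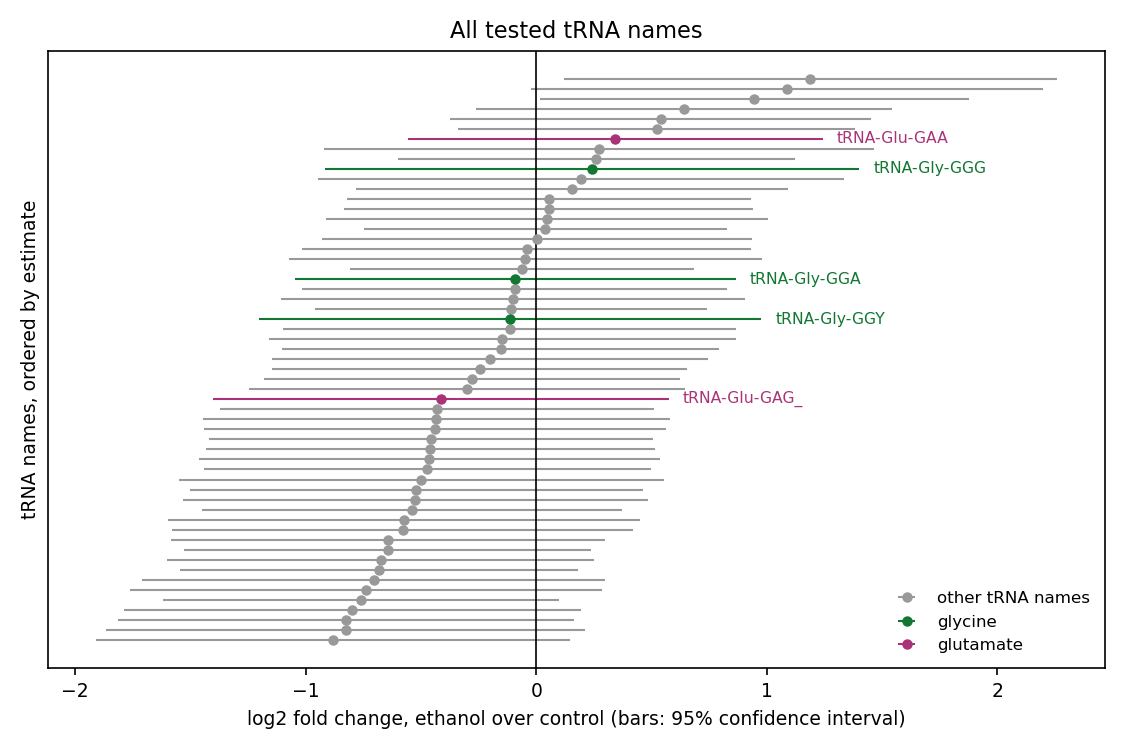
Log2 fold change of ethanol over control for the 57 tested tRNA names, ordered by estimate, with 95% confidence intervals as bars, glycine names in green, glutamate names in magenta and other names in grey. The intervals of all 5 glycine and glutamate names include 0, from tRNA-Glu-GAG_ at -0.41 to tRNA-Glu-GAA at 0.34.

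When the 57 tRNA names were fitted alone, so that each was compared with other tRNAs, edgeR called 0 of them (0.0%), with 10 at an unadjusted p under 0.05. Of the 5 glycine and glutamate names 0 had an unadjusted p under 0.05 in that fit. The estimate of tRNA-Gly-GGY became 0.11 ± 0.39 (adjusted p = 0.813) and that of tRNA-Glu-GAG_ -0.12 ± 0.32 (adjusted p = 0.748). tRNA-Glu-GAA had the highest estimate of the 5, 0.83 ± 0.38 (adjusted p = 0.260).

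As a share of all deposited counts, glycine names held 6.78%, 7.01%, 9.71% and 9.04% in control 1 to 4 and 10.1%, 3.88%, 5.91% and 15.1% in ethanol 1 to 4. The means were 8.13% ± 1.46 in control and 8.75% ± 4.97 in ethanol (SD, n = 4). Glutamate names held 7.48%, 8.15%, 7.90% and 8.83% in control and 7.33%, 4.72%, 4.89% and 11.8% in ethanol, with means of 8.09% ± 0.568 and 7.17% ± 3.28. In both cases the ethanol range enclosed the control range. These shares add all rows of a name. With 1 copy per structural RNA, the largest, glycine names held 1.05% ± 0.223 of counts in control and 1.28% ± 0.926 in ethanol. Glutamate names then held 0.898% ± 0.121 and 0.815% ± 0.313. Which level is nearer to the RNA present depends on the placing of reads with several alignments, which is not given.

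Of tRNA counts alone the 2 amino acids held similar shares in control. Glycine names made up 24.7% ± 3.35 of tRNA counts in control and 23.0% ± 7.72 in ethanol, a difference smaller than either SD. Glutamate names made up 24.7%, 24.8%, 22.1% and 27.4% in control 1 to 4 and 21.1%, 15.2%, 18.1% and 22.1% in ethanol 1 to 4. Ethanol 1, 2 and 3 were below every control library, and ethanol 4 was level with control 3. The means were 24.7% ± 2.15 and 19.1% ± 3.15. With the largest copy alone the glutamate shares were 9.31%, 10.06%, 7.76% and 9.43% in control and 9.86%, 8.01%, 6.54% and 6.91% in ethanol, and only ethanol 3 and 4 were below every control. These shares were not tested, since they are sums over the chosen names, and tRNA-Glu-GAG_ did not pass the threshold in either fit.

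**Figure D3:**
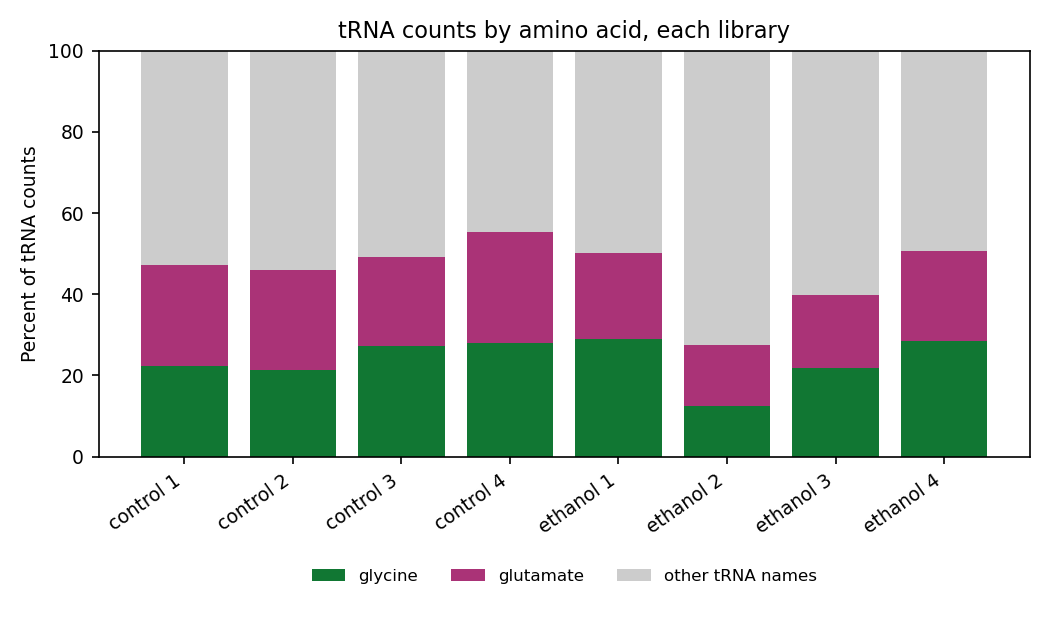
Percent of tRNA counts held by glycine names (green), glutamate names (magenta) and all other tRNA names (grey) in each of the 8 libraries. Glycine and glutamate names together made up 46.1% to 55.4% of tRNA counts in control, and 50.2%, 27.6%, 39.9% and 50.6% in ethanol 1 to 4.

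The balance between the 2 main names also varied by library. Counts of tRNA-Gly-GGY divided by those of tRNA-Glu-GAG_ gave 0.869, 0.825, 1.18 and 0.987 in control and 1.34, 0.776, 1.15 and 1.24 in ethanol. The lowest and the highest ratio both came from ethanol libraries, and the means were 0.966 ± 0.160 and 1.13 ± 0.245 (SD, n = 4).

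The rows behind a name were far from independent. Of the 105 rows 63 had at least 100 counts over the 8 libraries, and 17 of these carried exactly the counts of another row of the same name in every library. Rows whose counts agreed within 1% in each library formed 8 sets of 2 or more, with 37 rows, and the other 26 rows were like no other row. If a read is counted at each copy it matches, summed levels grow with the number of alike copies. The placing of such reads is not given. When each structural RNA was represented by its largest copy, tRNA-Gly-GGY ranked 2 and tRNA-Glu-GAG_ ranked 4 among tRNA names, and tRNA-SeC(e)-TGA, which has 1 row, ranked 1. For comparison, the RefSeq annotation of GRCm38.p6 lists 15 glycine tRNA genes with the anticodons GCC or ACC and 12 glutamate tRNA genes with CTC, where the table had 25 rows for tRNA-Gly-GGY and 29 for tRNA-Glu-GAG_.

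In tRNA-Gly-GGY, 8 alike copies led by copy16 held 73.1% of the counts of the name. Copy16 had 26887, 26622, 38724 and 39531 counts in control 1 to 4 and 60967, 11288, 36028 and 78400 in ethanol 1 to 4. Its counts put the 8 libraries in the same order as those of the whole name. Its log2 fold change as a feature of its own was -0.11 ± 0.50 (adjusted p = 0.900, edgeR). A further 3 alike copies led by copy5, with 8.21% of the counts, had 7932, 8476, 10018 and 10478 counts in control and 19145, 4350, 10097 and 24886 in ethanol. The sets led by copy5 here, by copy6 and copy10 of tRNA-Glu-GAG_ and by copy8 of tRNA-Glu-GAA fall outside the rule for named copies and were chosen after their values were seen.

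In tRNA-Glu-GAG_, 3 sets held most of the counts: 9 alike copies led by copy6 (54.6%), 4 led by copy15 (25.9%) and 2 led by copy1 (15.4%). Copy1 had 29343, 34271, 26081 and 28834 counts in control and 46497, 13382, 28900 and 37945 in ethanol. Copy6 had 18708, 17113, 22965 and 29541 in control and 25153, 8761, 19357 and 51689 in ethanol. The 2 sets did not keep a fixed proportion: copy1 divided by copy6 gave 1.57, 2.003, 1.14 and 0.976 in control and 1.85, 1.53, 1.49 and 0.734 in ethanol. The 2 libraries in which copy6 exceeded copy1 were control 4 and ethanol 4, so this shift crossed the groups. A single copy, copy10, held a further 3.44% and had its highest count, 28588, in ethanol 4.

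**Figure D4:**
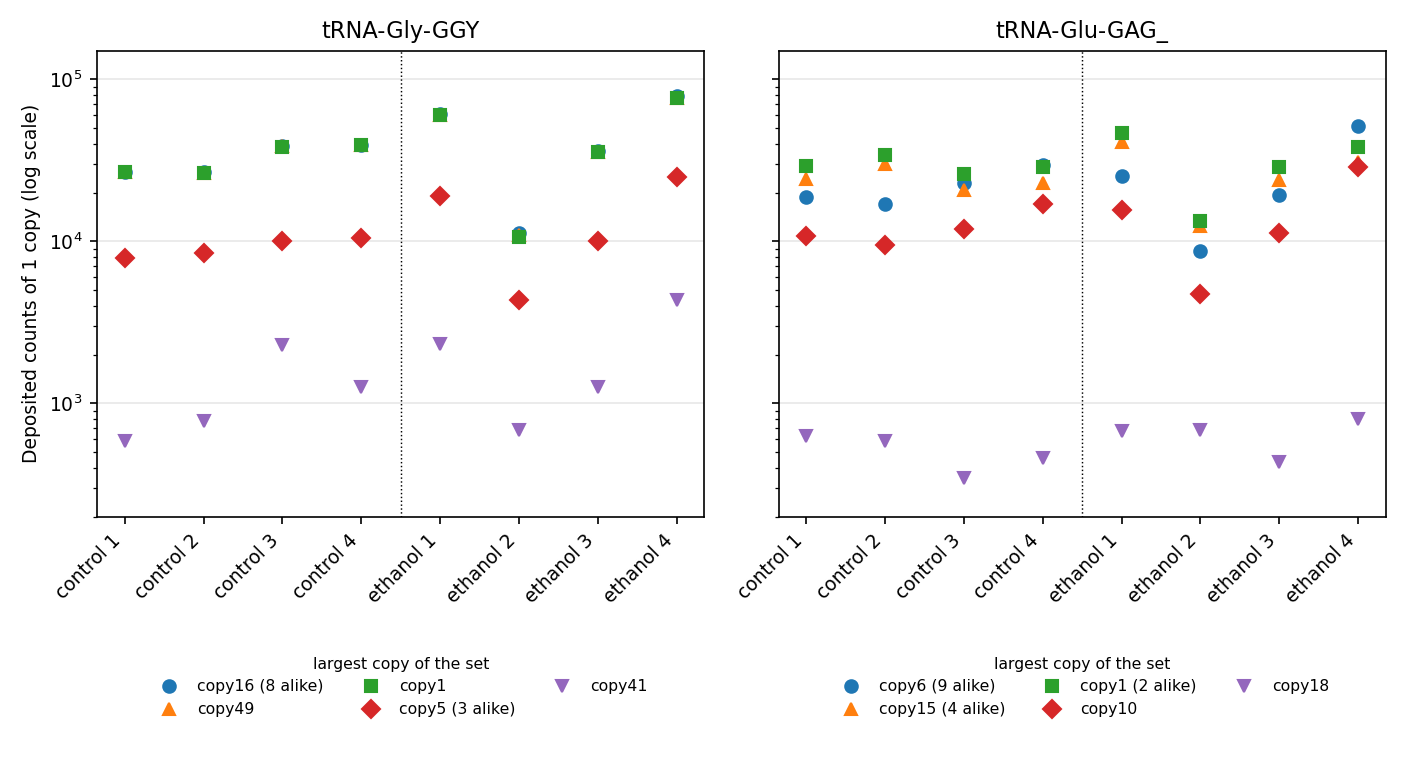
Deposited counts (log axis) of 1 copy in each library for the 5 sets of alike copies with the most counts in tRNA-Gly-GGY (left) and tRNA-Glu-GAG_ (right), with control libraries left of the dotted line. Copy16, copy49 and copy1 of tRNA-Gly-GGY overlie each other, while in tRNA-Glu-GAG_ copy6 passes from 18708 counts in control 1, below copy1 at 29343, to 51689 in ethanol 4, above copy1 at 37945.

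The rarer names rested on few distinct copies as well. In tRNA-Gly-GGA, 7 alike copies led by copy7 held 99.4% of counts, and 36 rows were listed. In tRNA-Gly-GGG, copy12 and copy15 were identical and held 67.2%, with 2148 counts each in ethanol 4 against 138 in ethanol 2. In tRNA-Glu-GAA, copy5 and copy6 were identical and held 90.0%.

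With every tRNA copy as a feature of its own, edgeR called 12.9% of 13930 features. Of the 63 glycine and glutamate copies tested 0 were called, and 0 had an unadjusted p under 0.05. Of all 472 tRNA copies tested 3 were called, 1 of tRNA-Ala-GCY_ and 2 of tRNA-Met_. The 63 estimates ran from -0.51 to 0.72, with 15 positive and 48 negative. All 25 tested copies of tRNA-Glu-GAG_ had a negative estimate, while of the 20 of tRNA-Gly-GGY 9 were positive and 11 negative. Alike copies, which may share reads, are not separate evidence.

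Within tRNA-Glu-GAA 2 ratios between copies had ranges that did not overlap between the groups, and the adjusted test could not decide on them. Copy5 had 397, 431, 386 and 400 counts in control and 556, 753, 584 and 1256 in ethanol. Copy9 had 92, 67, 75 and 90 counts in control and 78, 37, 71 and 173 in ethanol. The ratio of copy5 to copy9 was 4.32, 6.43, 5.15 and 4.44 in control and 7.13, 20.4, 8.23 and 7.26 in ethanol. Every ethanol library was above every control library. The ratio of copy5 to copy8 was likewise 8.63 to 10.5 in control and 11.02 to 23.5 in ethanol, with no overlap. Of 15 such ratios computed over the 5 names these 2 did not overlap, where 21.3% of all features tested had CPM ranges that did not overlap. That share is of single features in CPM, not of ratios of raw counts. Copy8 had from 32 to 79 counts. Each of the 2 ratios had p = 0.0286 in an exact permutation test (two-sided), the smallest that 70 assignments of the libraries allow. After adjustment over the 15 it was 0.214. The copy5 ratios share their numerator, and the difference did not pass the adjusted threshold.

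Across the 8 libraries the 2 main names varied together. The log2 CPM of tRNA-Gly-GGY and tRNA-Glu-GAG_ had a Pearson correlation of 0.930, while the median correlation with the other tested tRNA names was 0.531 for tRNA-Gly-GGY and 0.592 for tRNA-Glu-GAG_. The 8 points share depth scaling and rest in part on ethanol 2, the lowest library for both. The 5 tested features most like tRNA-Gly-GGY in this measure were reads in introns of Snx30 (0.982) and Rab21 (0.950) and the features of Gm597 (0.961), Pde1c (0.954) and Ubtd2 (0.950). Those most like tRNA-Glu-GAG_ were reads in introns of Gnai1 (0.975), Tmem65 (0.969), Gcnt2 and Cep95 (both 0.948) and the feature of Ubtd2 (0.953). All are given only as the features closest in pattern among the 13515, and all stood under 13 CPM in every library.

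Genes that make, modify, charge or cut tRNAs were examined from a list of 86, of which 80 were in the table and 34 had enough exon counts to be tested. Their RNA was present at low levels, and 8 were called higher and 1 lower in ethanol (edgeR). The filter asks for enough counts in only as many libraries as 1 group has. A low gene could thus enter the test through the group where it is higher. All 8 had their lowest library in control, such as 0.785 CPM in Rnaset2a, and Alkbh1, called lower, had its lowest in ethanol, 0.734 CPM. The background shares passed the same filter. The background over all features was 11.9% higher and 1.75% lower. Among the 6545 tested mRNA exon features 1560, or 23.8%, were called higher and 10 lower, so the share of the list called higher was close to that of mRNA in general. The median log2 fold change was 0.99 over the 34 genes and 0.88 over all tested mRNA exon features. All 9 calls were lost when any 1 control library was left out, with adjusted p from 0.0615 to 0.142, and limma-voom called 0 of the 34, with 17 at an unadjusted p under 0.05. The summed epididymal transcripts given above, mostly Crisp1, were higher in each ethanol library than in every control. Crisp1, a secreted epididymal protein, stood at 347 to 635 CPM in control and 770 to 9631 CPM in ethanol. The part of epididymal transcripts in these differences was not tested. Ethanol 2 was the highest library for all 8 genes called higher. mRNA exons as a class made up 29.3% of its counts, against 5.08% to 5.81% in control and 6.94% to 9.73% in the other ethanol libraries. Its TMM factor was 1.48, and those of the other libraries ran from 0.804 to 1.10. The part of this in the calls was not tested. Without ethanol 2 the log2 fold changes of the 8 genes fell from a range of 1.68 to 2.39 to a range of 1.01 to 1.65. Of these, 4 stayed past the threshold, Rnaset2a (1.65), Rnaset2b (1.52), Rtcb (1.498) and Ssb (1.29). Rnh1 (1.10), Nsun2, Gars and Polr3b (1.01 each) did not.

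Of 12 tested genes for cleavage and binding of tRNAs edgeR called 4 higher and 0 lower. Among all tested mRNA exon features 23.8% were called higher, so these counts do not set the genes apart from mRNA in general. Rnaset2a, a ribonuclease of the T2 family, stood at 0.785, 1.81, 2.25 and 3.06 CPM in control and at 6.02, 22.5, 4.72 and 8.65 CPM in ethanol. Every ethanol library was above every control, and the log2 fold change was 2.39 ± 0.55 with an adjusted p of 0.0287 (edgeR). Its near-identical copy Rnaset2b had 2.25 ± 0.51, and reads of the 2 may not be separable. Rnh1, the inhibitor of angiogenin and related ribonucleases, had a log2 fold change of 1.74 ± 0.49 (adjusted p = 0.0343). Ssb, the La protein that binds the 3′ end of new tRNA transcripts, had 2.27 ± 0.61 (adjusted p = 0.0321). Angiogenin itself, the ribonuclease best known for cutting tRNAs in the anticodon loop, was too low to test as Ang, with a mean of 0.131 CPM in control and 0.210 in ethanol.

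Beside 23.8% of all tested mRNA exon features, 1 of 6 tested genes for precursor processing and splicing was called higher. This was Rtcb, the ligase that joins tRNA exons after intron removal, at 1.57, 2.84, 2.996 and 5.01 CPM in control and 11.7, 35.1, 5.66 and 9.86 CPM in ethanol. All 4 ethanol libraries were above the controls, with a log2 fold change of 2.32 ± 0.55 (adjusted p = 0.0287, edgeR).

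Of 6 tested genes for base modification 1 was called higher and 1 lower. Of all 6545 tested mRNA exon features 23.8% were called higher and 10 features lower. Nsun2, which methylates cytosines of tRNAs, stood at 2.62, 3.36, 1.75 and 2.50 CPM in control and at 4.85, 17.05, 4.90 and 6.40 CPM in ethanol, with a log2 fold change of 1.68 ± 0.47 (adjusted p = 0.0354). Alkbh1, a demethylase that acts on tRNAs, stood at 17.8, 18.9, 3.25 and 3.06 CPM in control and at 0.734, 2.10, 2.45 and 1.04 CPM in ethanol. Its log2 fold change was -2.77 ± 0.63 (adjusted p = 0.0287, edgeR). Controls 1 and 2 were far above the other 6 libraries, and 87.9% of its 199 counts lay in a single annotated exon, with 68, 70, 7 and 8 counts in control and 5, 6, 6 and 5 in ethanol.

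Of 2 tested genes for charging with glycine or glutamate 1 was called higher, beside 23.8% of all tested mRNA exon features. Gars, the glycine tRNA ligase, stood at 1.31, 3.88, 2.25 and 3.34 CPM in control and at 5.14, 20.4, 4.53 and 7.26 CPM in ethanol, with a log2 fold change of 1.78 ± 0.53 (adjusted p = 0.0405, edgeR). Eprs, which charges glutamate and proline tRNAs, had 1.58 ± 0.52 and an adjusted p of 0.0538. Of 8 tested genes for transcription by RNA polymerase III, which makes tRNAs, 1 was called higher, against the same 23.8%. It was Polr3b, a subunit of the enzyme's core, with 1.75 ± 0.51 (adjusted p = 0.0394, edgeR).

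**Figure D5:**
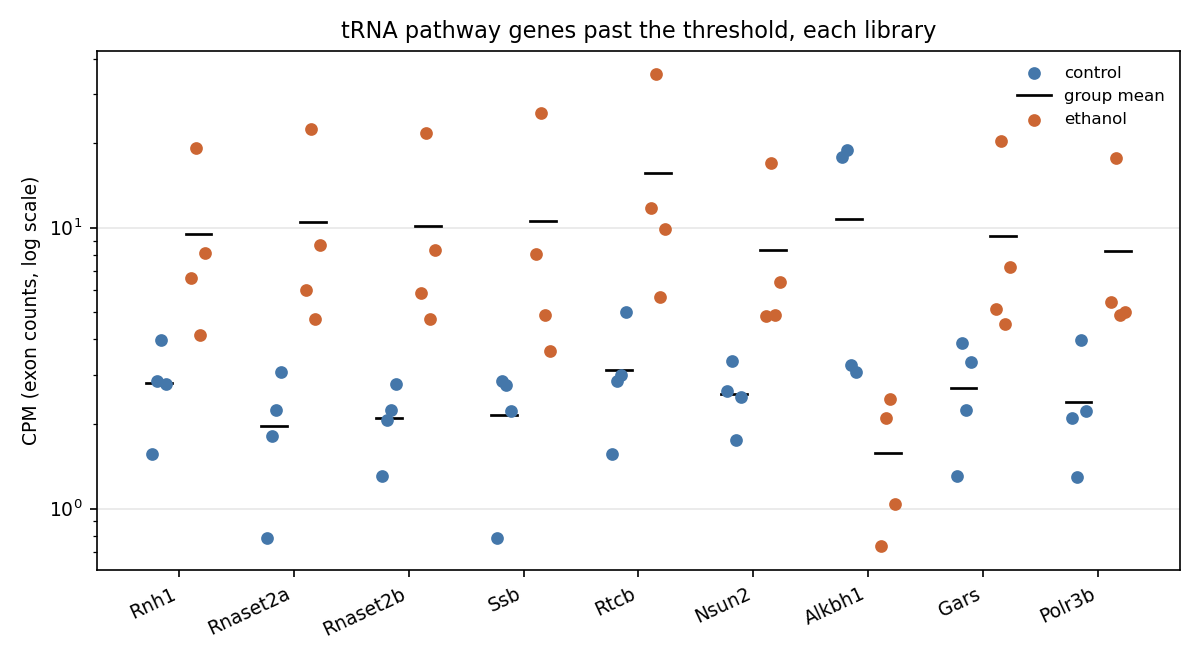
CPM (log axis) of exon counts of the 9 tRNA pathway genes called by edgeR, 1 point per library, control in blue and ethanol in orange, with a black line at each group mean. In the 8 genes called higher the top point is ethanol 2, up to 35.1 CPM in Rtcb, and in Alkbh1 controls 1 and 2 lie at 17.8 and 18.9 CPM above all other libraries.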

How the data were processed

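For 8 mouse sperm samples the authors deposited raw counts, whole numbers for each annotated row and library, in 1 table. Per the labels' protocols, Trizol served for RNA extraction and Qiaseq for small RNA libraries. The aligner, the genome build, the placing of reads with several alignments and any use of molecular identifiers are not given in the sources used here. Groups came from the sample titles.

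Rows of 1 name and class were summed over the whole table, and each piRNA cluster was represented by its largest transcript. The quasi-likelihood test of edgeR 4.0.16 (R 4.3.3), robust and with treatment group alone in the model, was run after filterByExpr at a minimum count of 10 and TMM scaling, with Benjamini-Hochberg adjustment over all 13515 features and a threshold of 0.05. CPM used TMM factors, and correlations used log2 CPM with a prior count of 2. Alternatives used DESeq2 1.42.0, limma 3.58.1, other scalings and filters, the largest copy, tRNA names alone and libraries left out. tRNA copies as separate features and the permutation test of copy ratios were added after seeing the data. Shares of all counts used the deposited totals; the total after the choice of cluster transcripts was also tried, after seeing the data. Python 3.11.15 with numpy 2.4.6, pandas 2.3.3 and matplotlib 3.10.9 gave shares, ratios and plots.

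The members and lists were chosen with earlier results of these data known. Named by rule were all glycine and glutamate tRNA names, their 3 largest copies, the 5 other tRNA names with the highest mean CPM, up to 4 called genes of each pathway list, the 2 most abundant genes of each marker list and the 5 features most correlated with each main name. On simulated counts for ethanol against control (13162 features) the test recovered 2% of 100 features with a 2-fold change and 52% of 100 with a 4-fold change, and 2 of its 56 calls were false. Marker lists covered spermatids and sperm, epididymal epithelium, blood and immune cells, and Sertoli, Leydig and stromal cells.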

Additional observations from a re-analysis of the deposited data

Results flagged for a closer look

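A library was set apart where its gap to the nearest library of its group was large for the group's range. This held for 11 values among 100 groups of 4 examined, and chance alone flags about 1 group in 20. Control 4 stood apart for tRNA-Glu-GAG_, at 120659 CPM against 88377 to 91781 in the other controls.

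Ethanol 2 stood apart in 5 values. These were tRNA-Asp-GAY at 93177 CPM (others 24553 to 35890), Nsun2 at 17.05 CPM (4.85 to 6.40), Polr3b at 17.7 CPM (4.90 to 5.43), Adam7, an epididymal transcript, at 1502 CPM (25.4 to 59.0), and the ratio of copy5 to copy9 of tRNA-Glu-GAA at 20.4 (7.13 to 8.23).

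The other 5 were ratios between copies. In control 1 the ratio of copy5 to copy8 of tRNA-Glu-GAA was 8.63 (others 10.3 to 10.5), and that of copy7 to copy50 of tRNA-Gly-GGA was 442.5 (192 to 217). In ethanol 4 copy12 of tRNA-Gly-GGG exceeded copy16 by a ratio of 5.93 (2.49 to 2.64) and copy17 by 6.10 (2.52 to 2.71). In control 4 the ratio of copy16 to copy49 of tRNA-Gly-GGY was 1.006 (1.004 to 1.005). Copy50 had from 4 to 33 counts.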

How the results depend on the processing

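The count of glycine and glutamate tRNA names called was 0 in every alternative run. Of 95 alternative estimates for the 5 tested names 81 kept their sign and 14 turned, and none passed the threshold (adjusted p 0.214 to 0.999). With library totals in place of TMM, which moves the median of all features to 0.24 from -0.01, tRNA-Gly-GGY was 0.10 and tRNA-Gly-GGA 0.13. With tRNA names alone they were 0.11 and 0.19. Without the 2 ethanol libraries whose codes begin POM they were 0.25 and 0.30. Without the 2 whose codes begin POEM tRNA-Gly-GGG was -0.87 and tRNA-Glu-GAA -0.087. limma-voom gave tRNA-Gly-GGG -0.11. With 1 library left out tRNA-Gly-GGY ran from -0.55 (without ethanol 4) to 0.13 (without ethanol 2), tRNA-Gly-GGA from -0.46 to 0.071 and tRNA-Gly-GGG from -0.45 to 0.51 (the same libraries), and tRNA-Glu-GAA from -0.0010 (without ethanol 4) to 0.53 (without ethanol 1). tRNA-Glu-GAG_ stayed negative throughout, from -0.98 to -0.07.

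The titles number the samples 1 to 4 in both groups, but nothing says that a number pairs samples. For each tested feature, log2 CPM was taken as its deviation from the mean of its group. Between same-numbered samples these deviations correlated at 0.34, 0.21, -0.13 and -0.02. With the replicate block tRNA-Gly-GGG was -0.10, 0 glycine and glutamate names were called, and 12 pathway genes were called higher and 1 lower.

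The 8 pathway genes called higher became 4 with DESeq2 size factors, 11 with the DESeq2 Wald test and 0 with limma-voom. With no filter they became 16 (80 genes tested), without the POM codes 2 (Rnaset2a and Rnaset2b) and without the POEM codes 13. The 1 called lower became 0 with limma-voom and without the POM codes. A filter at a mean of 50 counts left 6 genes and removed every gene called in the main fit. Its 0 calls therefore say nothing about those genes. Leaving out 1 library gave 0 to 12 called higher and 0 to 1 lower: 0 and 0 without any 1 control, 4 and 0 without ethanol 2, and 5 and 1 without ethanol 4. The cause was not tested.

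Ethanol minus control was 0.616 percentage points for the glycine share and -0.915 for the glutamate share of all counts, and 0.654 and -0.988 of the counts left after the choice of piRNA cluster transcripts. With tRNA counts as the denominator they were -1.76, which turns the sign for glycine, and -5.62. With the largest copy they were 0.225 and -0.0832. Control means were then 1.05% and 0.898%, in place of 8.13% and 8.09%, so these points are on another base. Over summed rows the differences were 2.37 and 0.236 without the POM codes and -1.14 and -2.07 without the POEM codes. Leaving out 1 library gave -1.50 to 2.24 for glycine, negative only without ethanol 4, and -2.44 to -0.0951 for glutamate.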
